A study of Homo sapiens with 6 samples.

Results

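The genes described here are 48 interferon-stimulated genes and regulators of the interferon response, chosen by symbol from a named list, and 47 of them had a row among the 12499 genes of the deposited count table. HERC5, which encodes the ligase that attaches ISG15 to proteins, had no row. HaCaT cells, an immortalised line of human keratinocytes, were infected for 48 h with a lentivirus labelled LV-ATF7 or with the control lentivirus LV-NC and were then kept in high glucose for 24 h. LV-ATF7 carries the coding sequence of human ATF7, a transcription factor of the ATF/CREB family, in a pLVX-IRES-Puro vector whose promoter is not named in the sources used here. The poly(A) RNA of 3 replicates per group was sequenced, giving 6 libraries in 2 groups. Both groups carried lentivirus and both were in high glucose, so no uninfected and no normal-glucose library enters the comparison. The labels do not say whether replicates were separate cultures, so the p-values measure the spread between these libraries, which may be technical.

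Type I interferons bind the IFNAR1 and IFNAR2 receptor chains, and the kinases JAK1 and TYK2 attached to these chains phosphorylate STAT proteins, among them STAT2. Together with IRF9 these form the ISGF3 complex, which binds the interferon-stimulated response element (ISRE) in front of many antiviral genes, while STAT dimers bind the GAS element. Keratinocytes hold receptors for foreign RNA and DNA, and interferon-stimulated genes are a common readout of viral or nucleic acid sensing in skin.

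Total counts ran from 16686472 to 20562768 per library, and every row of the table summed to at least 51 counts over the 6 libraries. ATF7 itself went against the labels. It stood at 50.6, 46.4 and 52.2 CPM (counts divided by a library total that was scaled by TMM) in the LV-NC libraries and at 21.9, 25.7 and 28.0 CPM in those labelled LV-ATF7, a log2 fold change of -0.98 (adjusted p = 1.89e-04), and 43.8% of its exon bases also lie in other genes. All directions below are therefore of the libraries labelled LV-ATF7 against the libraries labelled LV-NC. LV-NC replicate 1 stood apart from its group: its log2 CPM correlated with LV-NC replicates 2 and 3 at 0.967 and 0.969 over genes, where these correlated with each other at 0.994, so results that rest on it are given with and without it. All 12 keratinocyte markers on the list had a row, and their summed level was 3227 to 4790 CPM in LV-NC against 8831 to 9548 CPM in the libraries labelled LV-ATF7. KRT14, a defining basal keratin, was low, at 0.375, 12.5 and 11.3 CPM in LV-NC replicates 1, 2 and 3 against 1.38 to 1.82 CPM in the other group. Its log2 fold change was -2.37 (edgeR, adjusted p = 0.0461), or -2.96 and past the threshold without LV-NC replicate 1. It passed in 5 of the 12 alternative settings that gave it a value. Summed fibroblast markers (3 of 7 with a row) were at 35.1 to 42.7 and 17.4 to 21.8 CPM, melanocyte markers (2 of 6) at 17.5 to 24.8 and 12.2 to 12.995 CPM, leukocyte markers (2 of 7, PTPRC without a row) at 2.25 to 5.92 and 8.93 to 11.9 CPM, and endothelial markers (2 of 5, PECAM1 and KDR without a row) at 1.12 to 5.50 and 84.6 to 89.9 CPM. The last sum was mostly CDH5, with means of 3.08 and 84.4 CPM, and the keratinocyte sum moved mostly with KRT5, with means of 266 and 3354 CPM. KRT14, KRT17, CDH1 and JUP had lower means in the libraries labelled LV-ATF7, and the other keratinocyte markers on the list had higher ones. The part of these markers in the interferon results was not tested, and in bulk RNA fewer cells of a type and less RNA per cell cannot be told apart.

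Of the 47 genes measured, 24 were higher and 9 were lower in the libraries labelled LV-ATF7 by edgeR's quasi-likelihood test at a Benjamini-Hochberg adjusted p under 0.05, and 14 did not pass. The 33 called genes are 70.2% of those measured, where the same test called 67.6% of all 12462 genes tested, so the share called is near the background. By direction, the background was 34.7% higher and 32.9% lower. With a fold change of at least 1.5 required as well, 26 interferon genes passed (21 higher and 5 lower), where 52.9% of all genes did (28.2% higher and 24.6% lower). The libraries of the groups did not overlap for 37 genes (27 higher and 10 lower), against 72.7% of all genes (38% and 34.7%). The median log2 fold change of the 47 genes was 0.45, beside 0.00 for all genes tested, while the median size of the change regardless of sign was 0.68 against 0.67. Without LV-NC replicate 1, 42 were called (26 higher and 16 lower), against 80.1% of all genes (39.9% and 40.2%), and the 33 calls made with it were all kept.

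**Figure D1:**
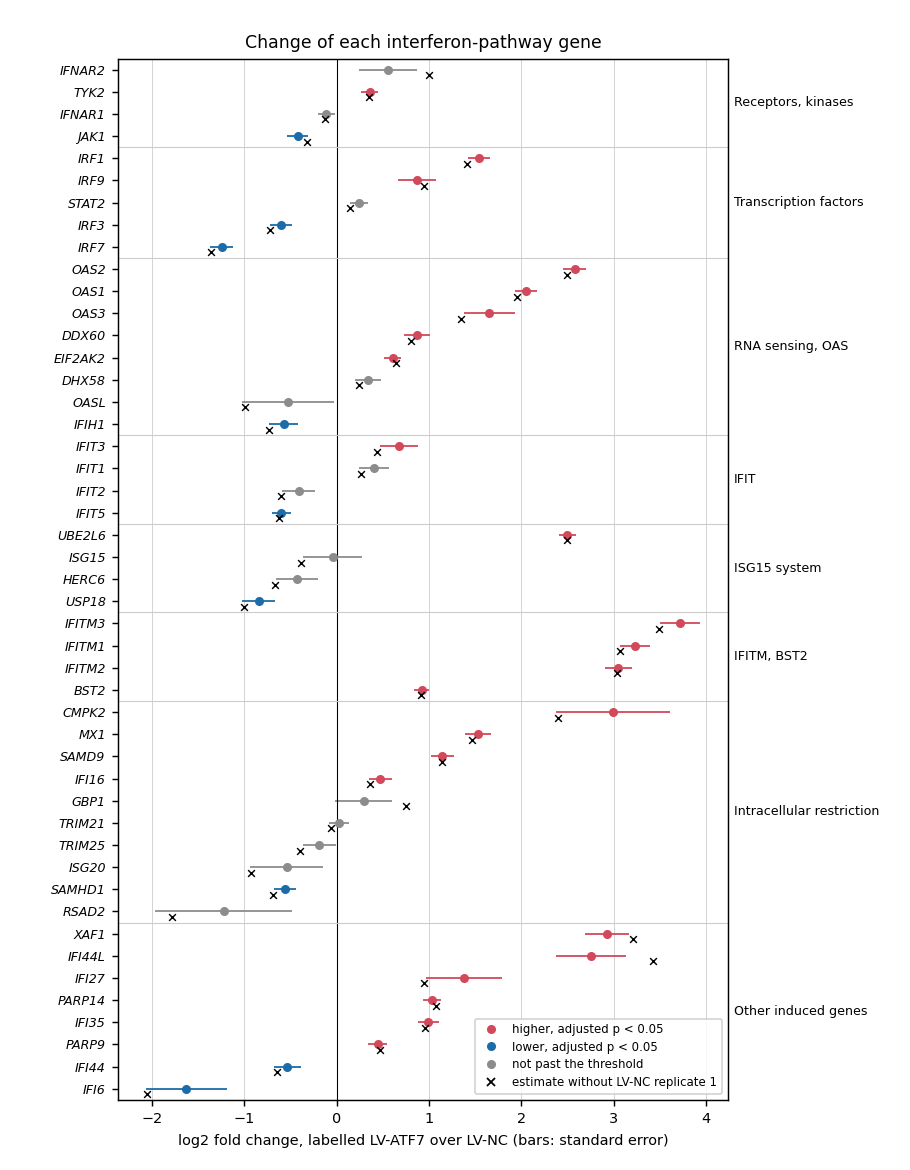
Log2 fold change (labelled LV-ATF7 over LV-NC, x axis) of the 47 interferon-pathway genes, grouped by role, with standard errors as bars; colours mark the edgeR call and crosses mark the estimate without LV-NC replicate 1. The 24 genes called higher reach 3.72 for IFITM3, and the 9 called lower reach -1.63 for IFI6.

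Counts by role stand beside 34.7% higher and 32.9% lower over all genes tested, or 39.9% and 40.2% without LV-NC replicate 1. The roles hold 4 to 10 measured genes each, and differences between them were not tested. All 4 membrane restriction factors were higher, though the IFITM genes among them share sequence. So were 5 of 8 RNA sensors and OAS genes, with 1 lower, and 6 of 8 genes of the remaining induced group, with 2 lower. Among 4 receptor chains and kinases 1 was higher and 1 lower, among 5 transcription factors 2 and 2, among 4 IFIT genes 1 and 1, and among 4 measured genes of the ISG15 system 1 and 1. Of 10 intracellular restriction factors 4 were higher, 1 was lower and 5 did not pass. Without LV-NC replicate 1 the counts of higher and lower genes were 5 and 4 for the intracellular factors, 1 and 3 for the ISG15 system, 1 and 2 for the IFIT genes, 5 and 2 for the RNA sensors and OAS genes, and 2 and 1 for the receptor chains and kinases, with the other roles at the counts given.

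**Figure D2:**
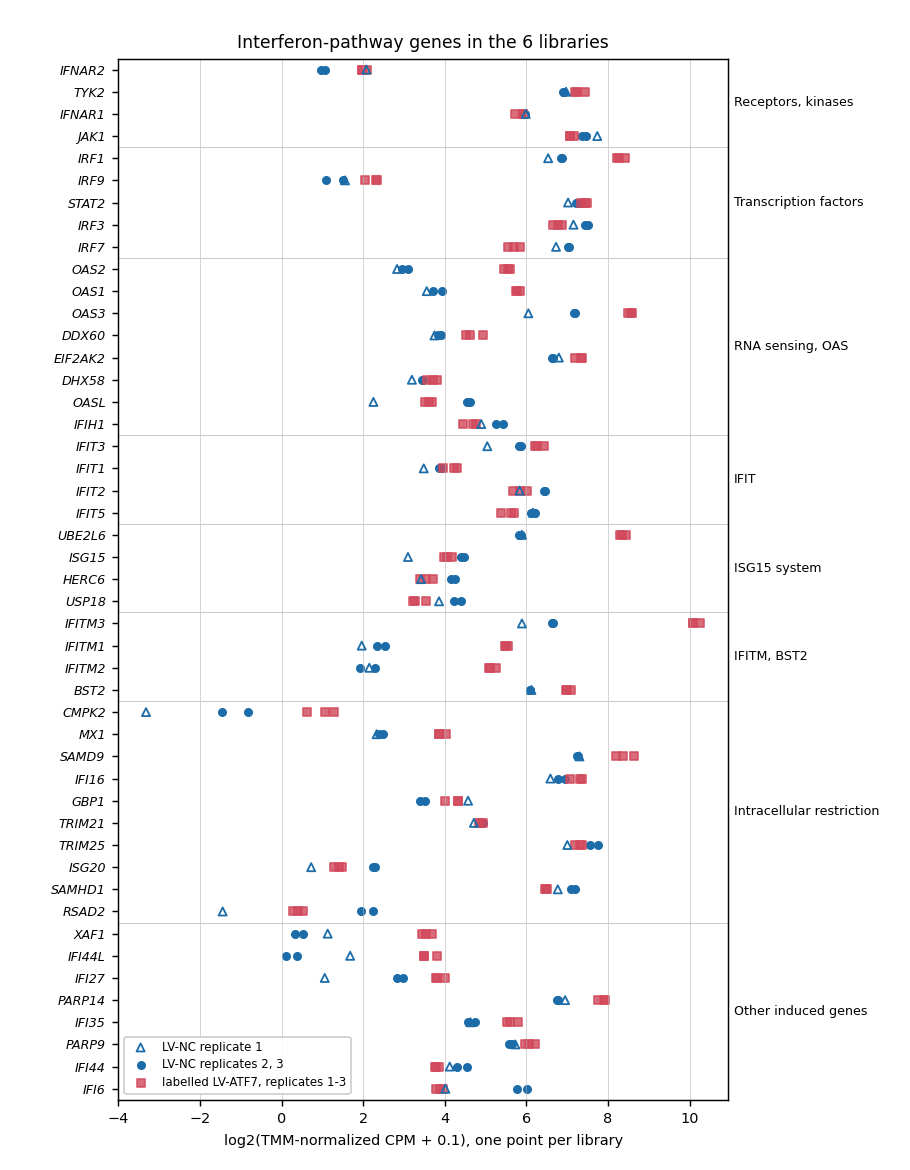
Expression of each interferon-pathway gene in each library as log2(TMM-normalised CPM + 0.1) on the x axis, 1 point per library, grouped by role; triangles are LV-NC replicate 1. The libraries labelled LV-ATF7 lie clear of all LV-NC libraries for IFITM1, IFITM2, IFITM3, OAS1, OAS2 and UBE2L6, while LV-NC replicate 1 lies far to the left of its group for RSAD2, OASL, IFI6 and IFI27.

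Promoter sequences from 250 bases before to 50 bases after the start site were found for 39 of the 48 genes in the RefSeq table (GRCh38.p14). IFNAR2, IRF3, IRF7, DHX58, OAS2, OASL, IFIT2, USP18 and IFITM2 were not among them. The ISRE core was searched on both strands as GAAA, any 2 bases and again GAAA. It was found for 24 of the 39 genes (61.5%), where 4.38% of all 27305 genes with a window held it. It did not go with a single direction: of the 24 genes, 13 were higher, 4 were lower, 6 did not pass and HERC5 had no row, and of the 15 without it 9 were higher, 2 lower and 4 did not pass. The counts were 14 higher and 7 lower with the core, and 9 and 4 without it, once LV-NC replicate 1 was left out. In that setting 39.9% of all genes were higher and 40.2% lower. Over all genes tested, with every library kept, 41.4% of those with the core were higher and 29.5% lower, where 33.4% and 33.8% of those without it were.

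The windows below show the same core in front of genes that were higher (IFITM1, IFITM3 and IFI44L), lower (IFI6, IFIT5 and IFIH1) or not called (IFIT1 and ISG15). Sequences are written along the strand of the gene and end before the start site, with each core that lies before the start site in capitals, which reads as TTTC, 2 bases and TTTC where the match is on the opposite strand. A match describes the letters only.
IFITM1, chr11:313990-314019, plus strand: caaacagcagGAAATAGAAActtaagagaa
IFITM3, chr11:320876-320922, minus strand: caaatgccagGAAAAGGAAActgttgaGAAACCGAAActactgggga
IFI44L, chr1:78620274-78620394, plus strand: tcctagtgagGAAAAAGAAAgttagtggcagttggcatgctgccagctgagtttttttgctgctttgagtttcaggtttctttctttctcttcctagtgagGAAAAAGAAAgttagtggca
IFI6, chr1:27672266-27672358, minus strand: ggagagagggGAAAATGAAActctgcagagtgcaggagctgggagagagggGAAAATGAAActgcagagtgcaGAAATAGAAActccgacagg
IFIT5, chr10:89414513-89414567, plus strand: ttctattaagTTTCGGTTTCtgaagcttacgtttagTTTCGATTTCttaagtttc
IFIH1, chr2:162318686-162318853, minus strand: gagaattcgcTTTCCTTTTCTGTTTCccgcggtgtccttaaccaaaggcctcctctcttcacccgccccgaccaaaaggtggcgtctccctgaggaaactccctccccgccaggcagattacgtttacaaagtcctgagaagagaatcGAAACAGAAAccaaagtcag
IFIT1, chr10:89392497-89392539, plus strand: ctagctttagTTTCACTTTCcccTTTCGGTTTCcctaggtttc
ISG15, chr1:1013374-1013409, plus strand: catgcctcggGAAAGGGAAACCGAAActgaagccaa
Counted before the start site, IFI6 and IFIH1 held 3 copies of the core and fell, and IFIT5 held 2 and fell. IFITM3 and IFI44L held 2 and rose, and IFITM1 held 1 and rose. In ISG15 the 2 copies overlap and share 4 letters, as do the first 2 copies in IFIH1.

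The GAS element, searched as TTCNNNGAA, was found for 10 of the 39 genes (25.6%) against 9.38% of all genes with a window. All 10 of these genes were higher: IRF1, IRF9, DDX60, OAS1, IFITM1, BST2, MX1, IFI27, IFI35 and PARP14. Of the 28 measured genes with a window and no GAS match, 12 were higher, 6 lower and 10 did not pass. Without LV-NC replicate 1 these were 13 higher, 11 lower and 4 that did not pass, and the 10 with a match were again all higher. In that setting 39.9% of all genes were higher and 40.2% lower. Over all genes tested, with every library kept, the share called higher was 34.5% with the motif and 33.7% without it. The match in IRF1, whose gene rose 2.91-fold, is shown with the element in capitals. In IFITM1, BST2, MX1 and IFI27 a GAS match overlaps an ISRE core, so the motifs are not separate there.
IRF1, chr5:132490879-132490907, minus strand: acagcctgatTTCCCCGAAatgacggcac
The cAMP response element TGACGTCA was found for 0 of the 39 genes and for 2.25% of all genes with a window. That says only that these letters were not in these windows.

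**Figure D3:**
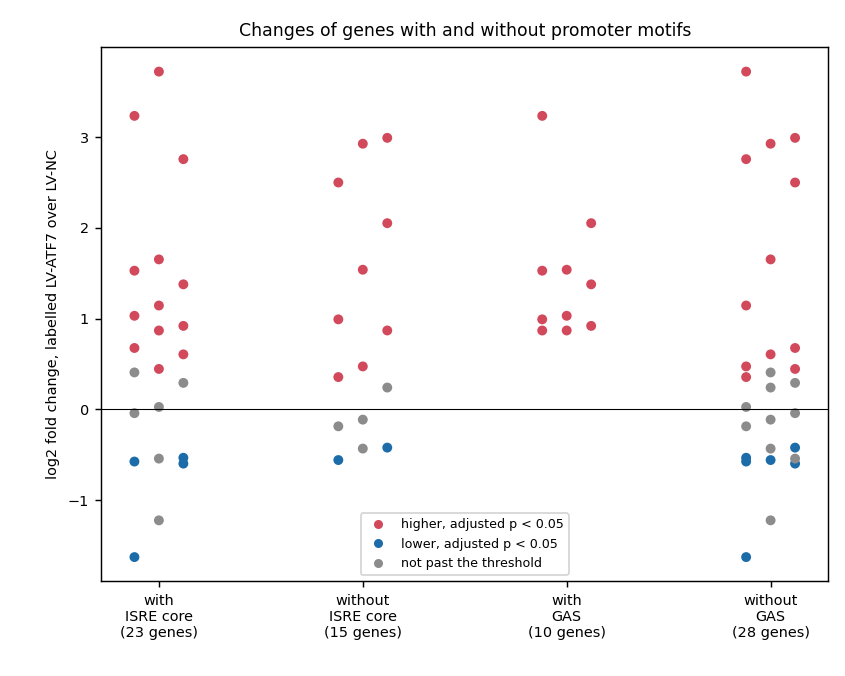
Log2 fold change (labelled LV-ATF7 over LV-NC, y axis) of the 38 measured genes with a promoter window, split by the ISRE core (23 with, 15 without) and by the GAS element (10 with, 28 without); each point is a gene, coloured by its edgeR call. Genes with an ISRE core run from IFI6 at -1.63 to IFITM3 at 3.72, and all 10 with a GAS match lie above 0.

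Among the membrane restriction factors the IFITM genes rose most. IFITM1, IFITM2 and IFITM3 encode small membrane proteins that hinder fusion of enveloped viruses with the cell, and they lie side by side on chromosome 11. IFITM1 and IFITM3 hold the ISRE cores shown above. IFITM3 (chr11:319669-327537 in GENCODE 29, GRCh38) stood at 59.2, 98.6 and 100.1 CPM in LV-NC replicates 1, 2 and 3 and at 1091, 1082 and 1227 CPM in the libraries labelled LV-ATF7. IFITM1 was at 3.80, 4.98 and 5.73 CPM against 46.8, 44.8 and 44.8 CPM. For IFITM2 the values were 4.34, 4.77 and 3.70 CPM against 34.1, 33.8 and 38.3 CPM. In each of these genes the lowest library labelled LV-ATF7 lay far above the highest LV-NC library. The log2 fold changes were 3.72 (SE 0.22, adjusted p = 5.27e-06) for IFITM3, 3.23 (SE 0.16, adjusted p = 2.83e-06) for IFITM1 and 3.05 (SE 0.15, adjusted p = 2.32e-06) for IFITM2. These genes are close copies: 32.0% of the 50-base words of IFITM1, 34.1% of those of IFITM2 and 17.4% of those of IFITM3 occur in other genes too, so the split of reads between them is uncertain. Their sum, which is less open to that split, was 95.1 ± 24.0 CPM in LV-NC against 1214 ± 83.1 CPM in the libraries labelled LV-ATF7 (SD, n = 3), a ratio of 12.8. BST2, or tetherin, holds budding virus particles at the cell surface and rose less. It was at 69.5, 67.7 and 67.7 CPM against 125, 127 and 136 CPM, without overlap, a log2 fold change of 0.92 (SE 0.08, adjusted p = 4.14e-05).

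OAS1, OAS2 and OAS3, which make the 2'-5' oligoadenylates that switch on RNase L when double-stranded RNA is present, rose together from adjoining positions on chromosome 12, with 5129 and 5145 bases between neighbouring genes. OAS2 was at 7.01, 8.49 and 7.70 CPM in LV-NC against 43.9, 46.5 and 48.2 CPM in the libraries labelled LV-ATF7. OAS1 moved from 11.7, 13 and 15.1 CPM to 54.6, 56.8 and 53.1 CPM. OAS3 was at 66.1, 144 and 147 CPM against 358, 384 and 380.1 CPM, so LV-NC replicate 1 was the lowest library by a wide margin. All these groups were separate, with log2 fold changes of 2.58 (SE 0.12, adjusted p = 2.20e-06) for OAS2, 2.05 (SE 0.12, adjusted p = 5.96e-06) for OAS1 and 1.65 (SE 0.27, adjusted p = 9.40e-04) for OAS3. Without LV-NC replicate 1 the log2 fold change of OAS3 was 1.34. OASL, a relative without synthetase activity that lies elsewhere on the same chromosome, did not share the rise. It was at 4.66, 23.1 and 24.3 CPM in LV-NC and at 12.7, 11.3 and 12.2 CPM in the other group, so LV-NC replicate 1 lay below and the other LV-NC libraries above all libraries labelled LV-ATF7. Its log2 fold change of -0.52 did not pass (adjusted p = 0.378), and without LV-NC replicate 1 it was -0.995 and past the threshold.

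The RNA sensors divided by gene. IFIH1 (MDA5), a helicase that detects long double-stranded RNA, was at 29.6, 42.6 and 38.1 CPM in LV-NC against 25.7, 26.9 and 21.6 CPM in the libraries labelled LV-ATF7. It fell by 0.57 on the log2 scale (SE 0.16, adjusted p = 0.0124), a change that did not pass without labelled LV-ATF7 replicate 3 (log2 fold change -0.48). EIF2AK2 (PKR), the kinase that halts translation on double-stranded RNA, was at 111, 98.9 and 101 CPM against 166, 163 and 145 CPM and rose by 0.61 (SE 0.10, adjusted p = 7.36e-04). DDX60, a helicase linked to antiviral RNA signalling, was at 13.3, 14.2 and 15.0 CPM against 30.4, 24.3 and 22.9 CPM and rose by 0.87 (SE 0.14, adjusted p = 9.31e-04). In these genes no library of either group crossed into the range of the other. DHX58 (LGP2), a regulator of IFIH1, had a log2 fold change of 0.34 that did not pass (adjusted p = 0.0673).

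Among the transcription factors, IRF1 and IRF7 moved in opposite directions. IRF1, an activator of interferon and of antiviral genes, was at 92.5, 115 and 117 CPM in LV-NC against 297, 307 and 339 CPM in the libraries labelled LV-ATF7. IRF7, the factor that amplifies type I interferon production, was at 106, 131 and 132 CPM against 51.6, 46.8 and 57.2 CPM. IRF3, which starts interferon production once a sensor has fired, was at 142, 180.5 and 174 CPM against 109.5, 100.2 and 117 CPM. Each of these was clear of overlap: IRF1 rose by 1.54 (SE 0.12, adjusted p = 1.84e-05), IRF7 fell by 1.24 (SE 0.13, adjusted p = 6.85e-05) and IRF3 fell by 0.60 (SE 0.12, adjusted p = 0.00221) on the log2 scale. For IRF1 22.0% and for IRF3 19.3% of exon bases overlap other genes, and the strand setting of the counting is not given in the sources used here, so some reads may belong to those genes.

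The parts of ISGF3 were measured at unlike levels. STAT2 was at 130, 150 and 154 CPM in LV-NC and at 160.5, 173 and 179.7 CPM in the libraries labelled LV-ATF7, groups that did not overlap, with a log2 fold change of 0.24 that did not pass (adjusted p = 0.0604). It was 0.15 and did not pass without LV-NC replicate 1, while it passed under upper quartile scaling (0.26) and under sample quality weights (0.17). IRF9, the DNA-binding part, was counted at 2.84, 2.04 and 2.72 CPM against 4.91, 4.94 and 4.04 CPM. It rose by 0.87 (SE 0.21, adjusted p = 0.00649) without overlap, and 48.4% of its exon bases overlap other genes, so its level is uncertain.

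The receptor chains and their kinases showed small differences. IFNAR1 was at 63.2, 61.7 and 62.2 CPM in LV-NC against 60.1, 60.0 and 53.0 CPM in the other group, a log2 fold change of -0.11 (adjusted p = 0.310). Its groups did not overlap, and the change passed under scaling by total counts only (-0.28). IFNAR2 was at 4.12, 1.99 and 1.85 CPM against 3.80, 3.82 and 4.15 CPM, with LV-NC replicate 1 among the libraries labelled LV-ATF7, and its log2 fold change of 0.56 did not pass (adjusted p = 0.150). Without LV-NC replicate 1 the change of IFNAR2 was 1.003 and passed, but 83.2% of its exon bases overlap other genes. The kinases went opposite ways and by under 1.5-fold. JAK1 was at 213, 163 and 175 CPM against 133, 143 and 135 CPM and fell by 0.42 (SE 0.11, adjusted p = 0.0118), which did not pass without labelled LV-ATF7 replicate 1 (log2 fold change -0.40). TYK2 was at 125, 122 and 119 CPM against 152, 146 and 172 CPM and rose by 0.36 (SE 0.09, adjusted p = 0.00942), which did not pass without LV-NC replicate 3 (0.30) or when libraries were scaled by total counts only (0.19).

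The IFIT genes encode proteins that bind foreign RNA and block its translation, and their 4 genes follow each other on chromosome 10 in the order IFIT2, IFIT3, IFIT1 and IFIT5. The outer genes, IFIT2 and IFIT5, had log2 fold changes below 0 and the inner genes above 0, and IFIT3 and IFIT5 passed the test. IFIT3 was at 32.8, 58.7 and 56.0 CPM in LV-NC against 86.1, 76.4 and 73.4 CPM in the libraries labelled LV-ATF7, and it rose by 0.68 (SE 0.21, adjusted p = 0.0196). That rise was 0.44 without LV-NC replicate 1, and it did not pass without labelled LV-ATF7 replicate 1 (0.61) or without labelled LV-ATF7 replicate 3 (0.73). IFIT5 was at 71.4, 74.0 and 69.6 CPM against 51.3, 49.4 and 41.5 CPM and fell by 0.60 (SE 0.11, adjusted p = 0.00143). Neither gene had overlapping groups. IFIT1, whose promoter is shown above, had a log2 fold change of 0.41 (adjusted p = 0.0556) and IFIT2 one of -0.41 (adjusted p = 0.0703). IFIT1 was at 0.27 and did not pass without LV-NC replicate 1, but it passed without labelled LV-ATF7 replicate 3 (0.50), under upper quartile scaling (0.43) and under sample quality weights (0.34). IFIT2 was -0.60 and passed without LV-NC replicate 1, where that library, at 56.9 CPM, lay below the other LV-NC libraries at 87.8 and 85.5 CPM.

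In the ISG15 system, in which ISG15 is joined to other proteins much as ubiquitin is, the conjugating enzyme rose while the modifier did not. UBE2L6, the conjugating enzyme, was at 59.3, 58.4 and 56.7 CPM in LV-NC against 326, 316 and 345 CPM in the libraries labelled LV-ATF7. Its rise of 2.50 on the log2 scale (SE 0.09, adjusted p = 9.36e-07), 5.65-fold, had the smallest adjusted p of the 47 genes. ISG15 itself, with its overlapping ISRE cores, was at 8.46, 21.1 and 21.9 CPM against 16.4, 15.8 and 17.9 CPM. The libraries labelled LV-ATF7 thus lay between LV-NC replicate 1 and its fellows, and the log2 fold change was -0.04 (adjusted p = 0.918), or -0.39 and past the threshold without LV-NC replicate 1. USP18, the protease that removes ISG15 and restrains the receptor, was at 14.4, 21.1 and 18.7 CPM against 9.21, 9.58 and 11.4 CPM. It fell by 0.84 (SE 0.18, adjusted p = 0.00342) without overlap, though 23.4% of its 50-base words also occur in other genes. HERC6, a ligase related to HERC5, had a log2 fold change of -0.43 (adjusted p = 0.123) and of -0.67, past the threshold, without LV-NC replicate 1.

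The intracellular restriction factors held rises, a fall and several genes for which LV-NC replicate 1 decided the call. MX1, a GTPase that traps viral ribonucleoproteins, was at 4.93, 5.50 and 5.15 CPM in LV-NC against 16.3, 14.4 and 14.3 CPM in the libraries labelled LV-ATF7, a rise of 1.53 (SE 0.14, adjusted p = 4.32e-05). SAMD9, a restriction factor of poxviruses, was at 157, 150.1 and 153 CPM against 398, 329 and 291 CPM and rose by 1.14 (SE 0.13, adjusted p = 1.04e-04). SAMHD1, which depletes the nucleotides a virus needs, fell by 0.56 (SE 0.12, adjusted p = 0.00386), and IFI16, a DNA sensor, rose by 0.47 (SE 0.13, adjusted p = 0.0103). The rise of IFI16 was 0.32 and did not pass under scaling by total counts only. TRIM21, an antibody receptor in the cytosol, had a log2 fold change of 0.03 (adjusted p = 0.833).

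CMPK2 and RSAD2 start from facing positions on chromosome 2, where their annotated spans overlap by 830 bases, and they stood apart in direction at low counts. CMPK2, a mitochondrial nucleotide kinase, had 0, 5 and 8 counts in LV-NC against 26, 46 and 36 counts in the libraries labelled LV-ATF7. Its log2 fold change of 2.99 (SE 0.62, adjusted p = 0.00305) rests on few reads, and without LV-NC replicate 1, the library with no count, it was 2.39. RSAD2 (viperin), which makes a chain-terminating nucleotide, had 5, 71 and 80 counts against 24, 22 and 22 counts. LV-NC replicate 1 was thus the lowest library and the other LV-NC libraries the highest, and the log2 fold change of -1.22 did not pass (adjusted p = 0.174). It was -1.78 and passed without that library. ISG20, an RNA exonuclease, showed the same arrangement, with 1.55, 4.82 and 4.63 CPM against 2.68, 2.55 and 2.32 CPM and a log2 fold change of -0.54 (adjusted p = 0.254), or -0.93 and past the threshold without it. TRIM25, the ubiquitin ligase that works with the RIG-I sensor, was at -0.19 (adjusted p = 0.381) and at -0.39, past the threshold, without it. GBP1, an interferon-induced GTPase, had LV-NC replicate 1 as its highest library at 23.7 CPM, above 11.4 and 10.4 CPM in its group and 15.98 to 19.93 CPM in the other. Its log2 fold change was 0.29 (adjusted p = 0.416), and 0.75 and past the threshold without that library.

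Of the other induced genes, IFI44L and IFI44 are relatives that lie 3650 bases apart on chromosome 1 and moved in opposite directions. IFI44L was at 3.11, 1.21 and 0.984 CPM in LV-NC against 11.1, 13.9 and 11.1 CPM in the libraries labelled LV-ATF7, a rise of 2.76 (SE 0.38, adjusted p = 3.58e-04) that was 3.42 without LV-NC replicate 1. IFI44 was at 17.3, 23.2 and 19.7 CPM against 14.5, 13.7 and 13.4 CPM and fell by 0.53 (SE 0.14, adjusted p = 0.0112). Neither had overlapping groups. IFI6 and IFI27 encode small mitochondrial or membrane proteins that interferon induces strongly, and they too went opposite ways. IFI6, with 3 ISRE cores, was at 16.1, 64.2 and 54.8 CPM against 14.6, 13.7 and 15.5 CPM, so LV-NC replicate 1 lay just above the libraries labelled LV-ATF7. IFI27 was at 1.98, 7.71 and 7.06 CPM against 15.85, 13.97 and 13.71 CPM. IFI6 fell by 1.63 (SE 0.44, adjusted p = 0.0108), and its log2 fold change was -2.05 without LV-NC replicate 1. IFI27 rose by 1.38 (SE 0.41, adjusted p = 0.0171), or by 0.95 without LV-NC replicate 1, and did not pass without labelled LV-ATF7 replicate 1 (1.31) or replicate 3 (1.42).

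The other 4 genes of this group rose. XAF1, which opposes the inhibitor of apoptosis XIAP, was at 2.09, 1.15 and 1.33 CPM in LV-NC against 12.8, 10.7 and 11.4 CPM in the libraries labelled LV-ATF7, a rise of 2.93 (SE 0.24, adjusted p = 2.33e-05), with 38.3% of its exon bases in overlap with other genes. PARP14, an ADP-ribosyltransferase, was at 123, 108 and 109.7 CPM against 243, 238 and 216 CPM and rose by 1.03 (SE 0.10, adjusted p = 4.55e-05). IFI35 was at 24.6, 26.7 and 23.7 CPM against 48.3, 45.6 and 55.5 CPM and rose by 0.99 (SE 0.11, adjusted p = 1.29e-04). In all of these the groups were separate. PARP9, which pairs with the ubiquitin ligase DTX3L, rose by 0.45 (SE 0.10, adjusted p = 0.00485), a change of 0.28 that did not pass under scaling by total counts only.

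Compared between genes, levels were taken as CPM per kilobase of exon counted once. On that scale the LV-NC means were led by IFITM3 at 63.8, BST2 at 61.0, IFI6 at 52.0, IRF7 at 46.8 and IRF3 at 43.6. The order of the first 3 differed between libraries. BST2 was first in LV-NC replicate 1, at 62.2 against 43.9 for IFITM3 and 18.6 for IFI6, IFI6 was first in LV-NC replicate 2, at 74.2 against 73.1 for IFITM3, and IFITM3 was first in LV-NC replicate 3, at 74.2 against 63.3 for IFI6. In the libraries labelled LV-ATF7 IFITM3 led all 3 libraries, with a mean of 841, followed by UBE2L6 at 149.6, BST2 at 116, SAMD9 at 49.5 and OAS3 at 45.3. UBE2L6 had been at rank 6 or 7 in every LV-NC library. IRF7, at rank 3 or 4 in the LV-NC libraries, was at ranks 15 to 17 in the other group, and IFI6, at ranks 1 to 9, was at ranks 19 and 20.

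LV-NC replicate 1 differed from its group in some of these genes and not in others. It was under the mean of LV-NC replicates 2 and 3 by over 2-fold in 8 of the 47 genes (OAS3, OASL, ISG15, ISG20, RSAD2, CMPK2, IFI6 and IFI27), where 5.12% of all genes tested were. It was over that mean by over 2-fold in 3 (IFNAR2, GBP1 and IFI44L), where 4.04% of all genes were. For RSAD2 its CPM was 0.0641 times that mean, for OASL 0.197 times and for IFI44L 2.84 times. It was below both other LV-NC libraries in 30 of the 47 genes and above both in 14, where it was below both in 43.7% and above both in 45.1% of all genes tested. Leaving it out of the edgeR test added 9 calls: IFNAR2, OASL, IFIT2, ISG15, HERC6, ISG20, RSAD2, TRIM25 and GBP1, of which 7 were lower and 2 higher. All 9 also passed under limma voom with sample quality weights. That fit kept every library but gave LV-NC replicate 1 a weight of only 0.0948, so it is not a separate check. With every library at full weight, IFIT2 and HERC6 passed under scaling by total counts only, and IFIT2 passed under DESeq2.

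**Figure D4:**
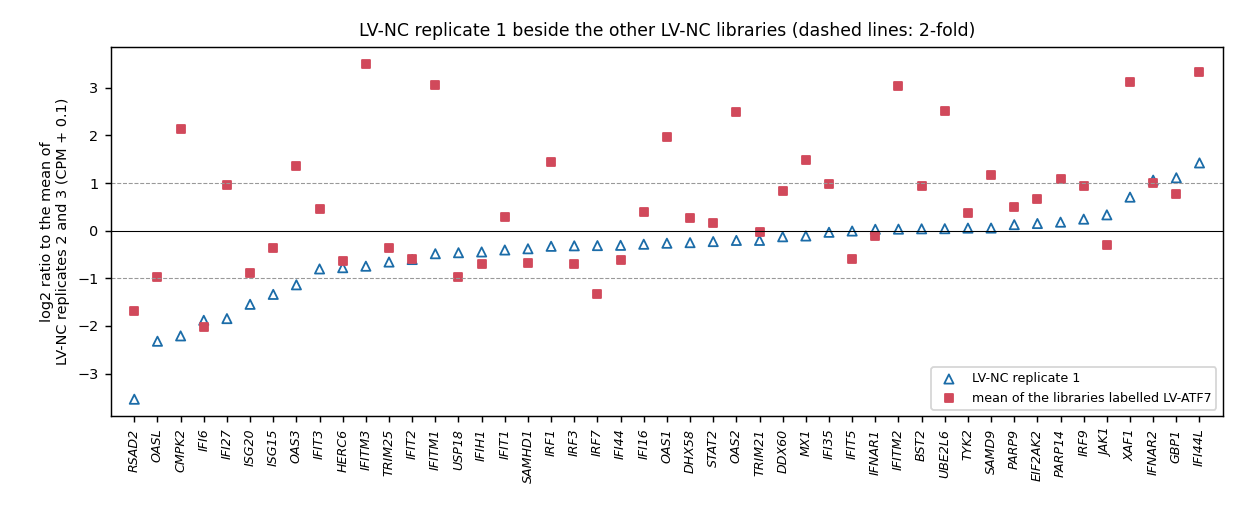
Log2 ratio (y axis, from CPM + 0.1) of LV-NC replicate 1 (triangles) and of the mean of the libraries labelled LV-ATF7 (squares) to the mean of LV-NC replicates 2 and 3 for each of the 47 genes on the x axis, ordered by LV-NC replicate 1; dashed lines mark 2-fold. RSAD2 and OASL lie lowest for LV-NC replicate 1 and IFI44L highest, while OAS2, UBE2L6 and IFITM2 lie near 0 for it and far above 0 for the libraries labelled LV-ATF7.

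Other genes of the interferon pathway were read from a list of 93 further symbols, of which 75 were tested. Of these, 43 were higher and 17 lower, 80.0% in all, against the 67.6% of all genes given above, and 15 did not pass. Without LV-NC replicate 1 the counts were 45 higher and 20 lower, against 80.1% of all genes called (39.9% higher and 40.2% lower). No interferon gene on the list (IFNB1, IFNA1, IFNE, IFNK, IFNL1, IFNL2, IFNL3 and IFNG) had a row. RIGI, the sensor of short double-stranded RNA, had 16 to 54 counts per library and was at -0.80 (adjusted p = 0.0694). It was past the threshold without LV-NC replicate 2, at -1.07, and under scaling by total counts only, at -0.97. IFNGR1, a chain of the type II interferon receptor, rose by 1.69 (adjusted p = 1.18e-05) and IRF2 by 0.35 (adjusted p = 0.00833). The rise of IRF2 did not pass without LV-NC replicate 3 (0.28) or under scaling by total counts only (0.19). JAK2, a kinase of the type II receptor, fell by 1.51 (adjusted p = 4.17e-04), and the feedback inhibitors SOCS1 and SOCS3 fell by 1.63 (adjusted p = 5.58e-04) and 1.18 (adjusted p = 5.16e-05). The largest rises among those listed genes that averaged 50 counts or more were TNFSF10, the death ligand TRAIL, at 4.70 (adjusted p = 1.51e-05), IKBKE, a kinase that activates IRF3 and IRF7, at 3.41 (adjusted p = 1.16e-06), and TRIM14, an adaptor of antiviral signalling, at 3.40 (adjusted p = 3.66e-06). The largest falls besides SOCS1 were CD274, the checkpoint ligand PD-L1, at -2.40 (adjusted p = 1.65e-05), and HELZ2, a helicase, at -1.77 (adjusted p = 2.66e-05).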

How the data were processed

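The authors enriched poly(A) RNA with oligo(dT) beads, sequenced it on an Illumina NovaSeq instrument and deposited read counts per gene, not normalised, for 6 libraries (3 per group). The submitters' processing notes name GRCh38. The aligner, the counting program, its strand setting and the annotation are not given in the sources used here. The deposited FPKM values and the columns of the authors' own comparison (fold changes and p-values) were not used. Libraries were grouped by their labels, and the interferon genes and other lists were chosen with earlier results of these data known.

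The quasi-likelihood test of edgeR 4.0.16 (R 4.3.3, TMM scaling, two-sided, no covariate) was run over the 12462 genes that passed filterByExpr, with Benjamini-Hochberg adjustment over all of them and a threshold of 0.05. The 37 rows under the filter were left out of the test, and 33 rows had a blank symbol. A standard error is the size of the log2 fold change over the square root of F. Deposited counts were also given as CPM. Gene positions, exon lengths, overlaps and shared 50-base words come from GENCODE 29 (GRCh38), and promoters from RefSeq GRCh38.p14. At 16686472 to 20562768 counts per library, counting error weighs most on genes of few counts such as CMPK2. Values per library were given for each interferon gene past the threshold with a fold change of at least 1.5, for the receptors, kinases, transcription factors, ISG15 and MX1, and, chosen after their values were seen, for IFIH1, IFI44, RSAD2, OASL, ISG20, GBP1 and IFIT2. Pathway genes were named from a short list, some of which is not reported here, and by the 3 largest rises and falls. No library pair agreed within sampling noise, with a chi-square of 2.83 or more per gene. The alternatives were DESeq2 1.42.0, limma voom 3.58.1 with sample quality weights, scaling by upper quartile or by total counts only, a filter of 10 counts in each library or none, a fold change of at least 2, the replicate number as a block and each library left out. The script was tested on simulated data. Python 3.11.15 was also used.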

Additional observations from a re-analysis of the deposited data

How the results depend on the processing

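None of the 47 interferon genes changed sign past a threshold under any alternative. The 33 called genes were 34 under DESeq2, 35 under upper quartile scaling, 33 without a filter and 32 with at least 10 counts in every library. They were 45 under limma voom with sample quality weights, which gave LV-NC replicate 1 a weight of 0.0948. When a library was left out they were 30 to 42. Calls over all genes also rose under the quality weights. They went from 67.6% to 80.1% without LV-NC replicate 1, and their number fell when any other library was left out. The larger counts under the quality weights and without LV-NC replicate 1 are therefore not particular to the interferon genes. Under scaling by total counts only, 33 interferon genes were called, of which 30 were shared with the main test. That scaling moved the median of all genes by -0.16 (log2) and the median of the interferon genes to 0.28. The share of higher calls among the interferon genes went from 72.7% to 63.6%, where among all genes it went from 51.3% to 42.4%. The 9 lower genes became 16 under the quality weights, and 8 to 16 when a library was left out, 16 of them without LV-NC replicate 1. Over all genes, lower calls also rose under the quality weights, and they went from 32.9% to 40.2% without LV-NC replicate 1. Of the 26 interferon genes past a fold change of 1.5, 17 passed one of 2, for which no share over all genes is given here. RSAD2 and CMPK2 gave no value under the filter of 10 counts. Deviations of same-numbered libraries from their group means correlated at 0.058, -0.021 and 0.065. LV-NC replicate 1 weighs heavily on the LV-NC deviations, so these values cannot decide whether the numbers pair the libraries. The replicate block called 33 interferon genes, the same 33. With 3 libraries per group and an LV-NC library that stands apart, calls that change between settings are the least certain. These were not confined to genes of few counts. JAK1 and TYK2 lost the call in some settings, while CMPK2 passed in all 12 alternatives that gave it a value.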
